A study of Bos taurus with 8 samples.

Results

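Serpins and a small set of other protease inhibitors were followed in the rumen, the fermentation chamber of the cattle forestomach. Genes were taken by symbol from the deposited count table: every serpin of clades A to I whose name is a clade letter and a number, plus A2M, A2ML1, SPINK5, CST3, CST6 and CSTB. Of 33132 genes counted, 38 matched, and 26 of them (20 serpins and 6 others) had at least 10 counts over the 8 libraries. The groups were 4 adult steers (castrated males) and 4 newborn male calves, all angus crosses, with rumen tissue as the sample and 1 library per animal. Age and castration change together between steers and calves and cannot be told apart, and diet and batch are not among the labels used here.

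Serpins inhibit proteases by offering a loop as bait: the protease cuts the loop, the loop folds into the serpin, and both proteins are trapped in one complex. Clade B serpins mostly stay inside cells and are known from squamous epithelia and leukocytes, whereas clades A, C, D, F and G are mainly plasma proteins that restrain clotting, plasmin and complement. Cystatins block lysosomal cysteine proteases, macroglobulins cage proteases of any class, and the SPINK5 product LEKTI holds back the kallikreins that shed cells from the skin surface. In stratified epithelia such as skin and rumen, these inhibitors balance the proteases that process and release the outer cells.

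Libraries held 42322022 to 54449684 counts in steers and 45779990 to 49628428 in calves. Levels are given as CPM, counts scaled to a common library size after TMM normalization, with mean ± SD over 4 animals per group, and changes are log2 fold changes, steer minus calf, ± SE from edgeR's quasi-likelihood test. CPM is not per length, so any share, ratio or ranking over different genes given below also depends on gene length. Summed smooth muscle markers (14 genes, KCNMB1 without a count) ran from 11106 to 110866 CPM in steers and from 6499 to 18874 in calves, lowest in steer 4 and highest in steer 2 among steers. Summed basal keratinocyte markers (14 of 14 counted) ran from 8668 to 16403 CPM in steers and from 12108 to 17416 in calves. In bulk tissue, fewer cells of a type and less RNA per cell cannot be told apart.

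Steers had higher SERPINB10 and CST6 and lower SPINK5, SERPINA1, SERPINA5, SERPINB12, SERPING1 and SERPINB1 than calves. Of 25 inhibitors tested, 9 passed an adjusted p of 0.05, 3 higher and 6 lower. Over all 16326 genes tested, 16.9% passed (7.7% higher and 9.16% lower). The median log2 change was -0.70 over the 25 inhibitors and 0.04 over all genes. CPM did not overlap between the groups for 3 inhibitors that were higher and 6 that were lower in steers, against 10.5% and 12.8% of all genes tested. SERPINA1 entered the test through its calf libraries alone, since no steer library reached the filter level, and SERPINB7 did not enter it. Both counts of 6 lower inhibitors, those called and those without overlap, include SERPINA1. Leaving out 1 library moved the number of inhibitors called between 5 (without calf 1 or calf 3) and 11 (without steer 4), and SERPINB10, CST6, SERPING1 and SERPINA5 were called in each of these fits. With the basal keratinocyte mean as a covariate, SPINK5 (-4.46), SERPINA5 (-2.57), SERPINB1 (-1.07) and SERPINB12 (-2.89) lost their calls. Their edgeR adjusted p ran from 0.103 to 0.235. Without the covariate the same changes were -3.84, -2.99, -1.11 and -2.16. The fit with it called 4 inhibitors and 646 genes in all, against 9 and 2752 without it, so calls were lost over the whole table. Of the 14 markers behind that mean, 5 were themselves called, 2 higher and 3 lower in steers. The part of basal cell content in the lost calls was not tested.

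**Figure D1:**
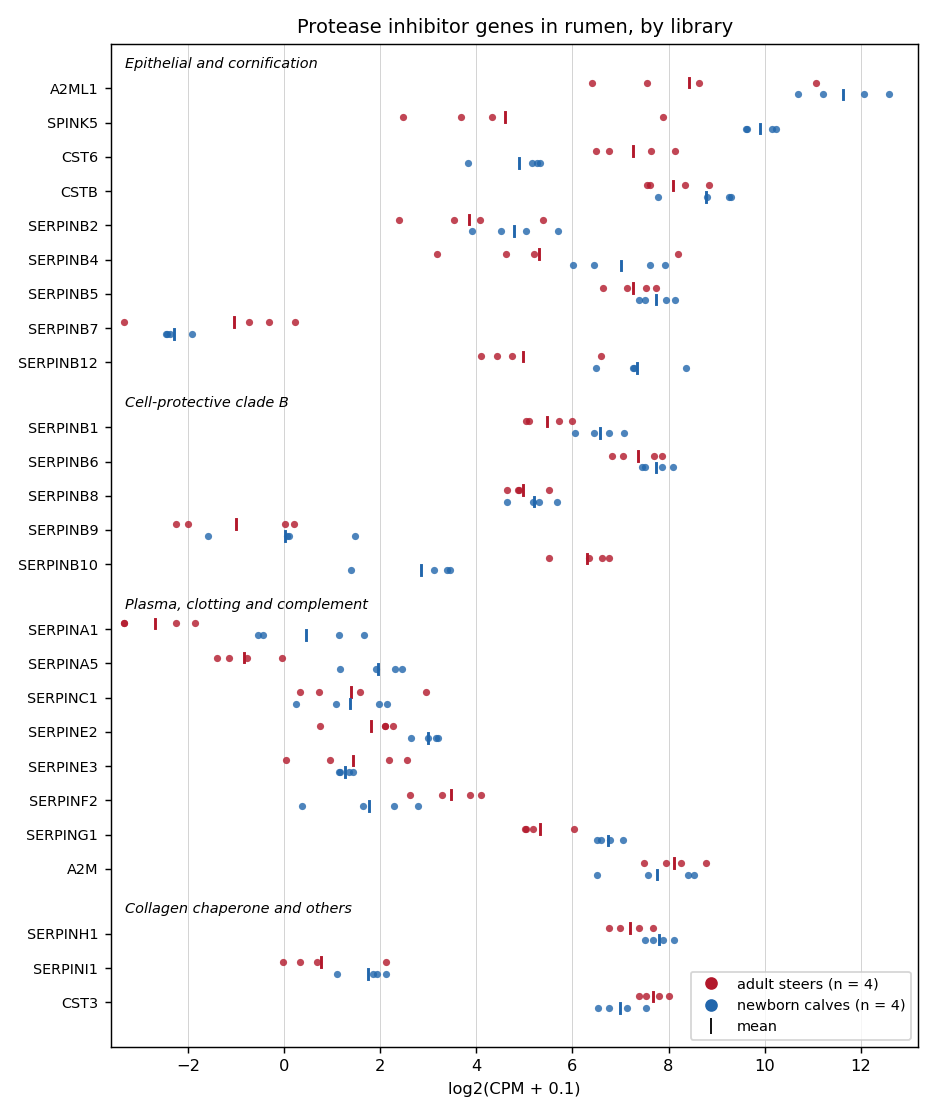
Level of the inhibitors described here in every library, on a scale of log2(CPM + 0.1), with steers above calves for each gene and a bar at the mean of the 4 log values. The points of SERPINB10 and CST6 lie to the right in steers without overlap, and those of SPINK5, SERPINA1, SERPINA5, SERPING1 and SERPINB1 to the left.

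**Figure D2:**
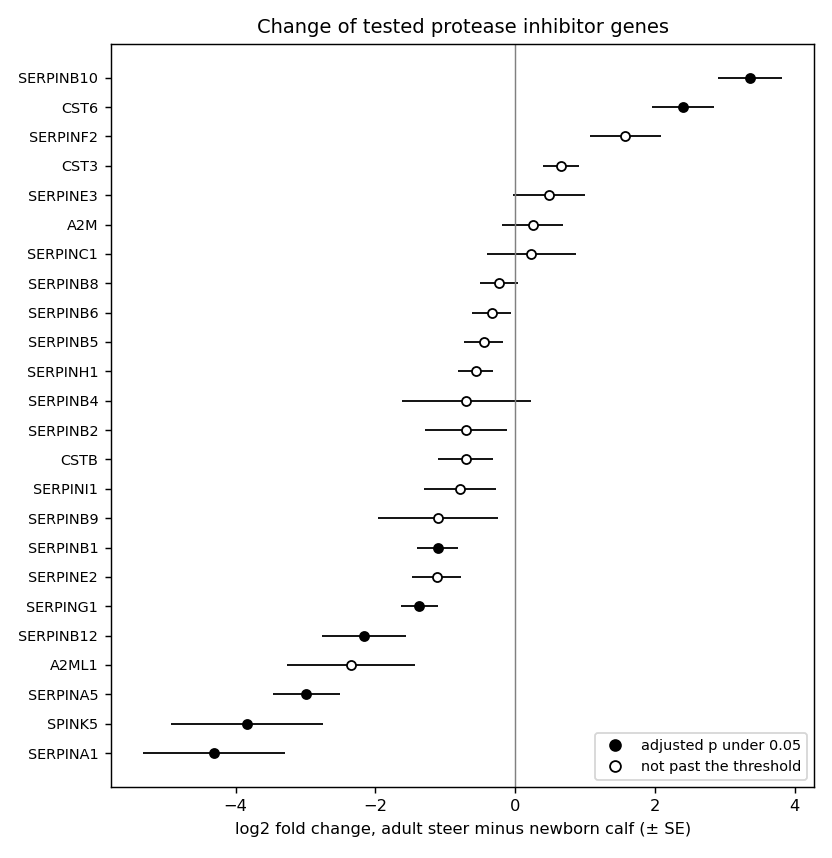
Log2 fold change, steer minus calf, of the tested inhibitors described here with its SE, where filled points passed an adjusted p of 0.05. The filled points run from -4.31 for SERPINA1 to 3.36 for SERPINB10.

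Among inhibitors of the squamous epithelium, CST6 rose and SPINK5 and SERPINB12 fell in steers, while 5 others that were tested did not pass. CST6 encodes cystatin M/E, an inhibitor of legumain and cathepsins L and V that is needed for normal cornification in mouse skin (chromosome 29, 44101083 to 44102573; all coordinates are those of the count table, and no source used here names its build). It had 282, 89.6, 108 and 198 CPM in steers 1 to 4, against 35.5, 14.1, 40.0 and 38.2 in calves 1 to 4. Every steer lay above every calf, at more than 2 times the highest calf. The log2 change was 2.41 ± 0.44 (edgeR adjusted p = 0.00613). Its targets cathepsin V and legumain showed no call: CTSV averaged 62.2 ± 20.2 CPM in steers and 42.8 ± 6.9 in calves (adjusted p = 0.179), and LGMN 41.8 ± 8.2 and 56.3 ± 16.7 CPM (adjusted p = 0.295). CTSV passed once the smooth muscle mean was a covariate (change 0.89, adjusted p = 0.0178). These 2 proteases were named because they are known targets of cystatin M/E, and cathepsin L is not reported here.

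SPINK5, whose loss causes the barrier disease Netherton syndrome in humans, lies on chromosome 7 from 59322054 to 59405624. It had 19.99, 5.48, 12.7 and 236 CPM in steers 1 to 4, against 1199, 790, 1143 and 784 in calves 1 to 4. Calves differed by 1.53-fold between the lowest and the highest, steers by 43.0-fold, and steer 4 alone came within 4 times of a calf. The log2 change was -3.84 ± 1.08 (edgeR adjusted p = 0.0375). Without steer 4 it was -6.26 (adjusted p = 0.000363). The call ended without steer 1, steer 3 or any single calf, with adjusted p of 0.0565 to 0.0823 and changes of -3.94 to -3.49, and with no filter on low counts (-3.83, adjusted p = 0.0566).

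SERPINB12, a clade B serpin of epithelia that inhibits trypsin-like enzymes in humans, lies on chromosome 24 from 61796828 to 61838025. It had 26.9, 17.0, 21.6 and 96.6 CPM in steers 1 to 4, against 153, 154, 329 and 89.8 in calves 1 to 4. Steers 1 to 3 lay below every calf, and steer 4 lay just above calf 4. The log2 change was -2.16 ± 0.61 (edgeR adjusted p = 0.0361), and -3.05 without steer 4 (adjusted p = 0.00262). The call ended without steer 1, 2 or 3 or without calf 1, 2 or 3, with changes of -2.24 to -1.71 and adjusted p of 0.0553 to 0.0924.

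A2ML1, the keratinocyte relative of the plasma macroglobulin, lies on chromosome 5 from 101040473 to 101090736. It had 400, 84.5, 188 and 2157 CPM in steers 1 to 4, against 4284, 2361, 6126 and 1650 in calves 1 to 4. Steers 1 to 3 lay at least 4 times below the lowest calf, and steer 4 above that calf. Over all libraries the log2 change of -2.35 ± 0.92 did not pass (edgeR adjusted p = 0.112), whereas limma-voom gave -3.27 and a call (adjusted p = 0.0389). Without steer 4 it was -4.01 and passed (adjusted p = 0.00546). A2ML1 made up 16.0%, 4.80%, 10.7% and 48.4% of the counts of all 26 inhibitors in steers 1 to 4, against 54.5%, 49.2%, 61.4% and 36.8% in calves 1 to 4.

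SERPINB4, a squamous cell carcinoma antigen that inhibits chymotrypsin-like proteases in humans, lies on a sequence not placed on a chromosome, and close relatives may share or lose reads. It had 36.7, 9.02, 24.7 and 295 CPM in steers 1 to 4, against 196, 87.6, 245 and 64.8 in calves 1 to 4. Steer 4 was above all calves and the other steers were below all calves, and the change of -0.70 ± 0.93 did not pass (adjusted p = 0.66). Without steer 4 the change was -2.66 with an adjusted p of 0.016. SERPINB2, the plasminogen activator inhibitor of keratinocytes and macrophages, had 5.18 to 41.7 CPM in steers and 14.9 to 52.2 in calves (adjusted p = 0.455).

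Among steers, steer 4 was highest and steer 2 lowest for 10 of the 25 tested inhibitors, including A2ML1, SPINK5, SERPINB2, SERPINB4, SERPINB5 and SERPINB12, against 20.2% of all tested genes. Summed markers of differentiated squamous cells, with SPINK5 taken out, followed the same order: 2926, 1083, 1388 and 4521 CPM in steers 1 to 4, against 40245 to 96441 in calves. Most of the calf mean sum of 75187 CPM came from KRT4 (37721) and KRT13 (29691), which averaged 1.37 and 522 CPM in steers. Of 17 markers of that list tested, SPINK5 among them, 11 fell in steers, 6 did not pass and none rose (64.7% called against 16.9% of all genes). IVL and DSG1 had no count. Among those that fell, CRNN, RPTN and KRTDAP averaged 0.0088, 0.086 and 0.13 CPM in steers, below the filter level of 0.212 CPM. Smooth muscle markers ran the other way among steers, at 57253, 110866, 52754 and 11106 CPM in steers 1 to 4. The part of marker differences in the changes of SPINK5, SERPINB12, A2ML1 and SERPINB4 was not tested beyond fits that add the smooth muscle or the basal keratinocyte mean. In the smooth muscle fit the changes were -3.58 for SPINK5 (adjusted p = 0.00301), -1.40 for SERPINB12 (adjusted p = 0.0227), -1.70 for A2ML1 (adjusted p = 0.0494) and -0.17 for SERPINB4 (adjusted p = 0.846). The basal keratinocyte fit ended the calls of SPINK5 and SERPINB12, as given above, and left A2ML1 and SERPINB4 without a call.

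**Figure D3:**
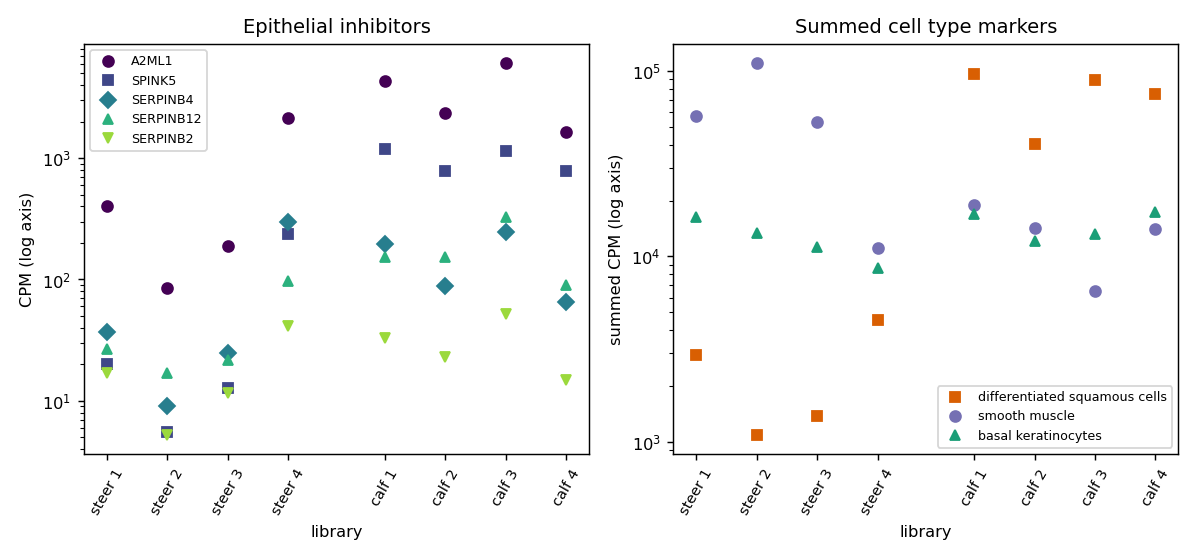
Left, CPM of 5 epithelial inhibitors in each library on a log axis; right, summed CPM of 3 marker lists in the same libraries on a log axis, steers left of calves. Steer 4 stands above the other steers for all 5 genes (SPINK5 at 236 CPM against 5.48 to 19.99), and it has the highest squamous (4521) and the lowest smooth muscle sum (11106) among steers.

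The other epithelial inhibitors were not called. SERPINB5, or maspin, a clade B protein without known inhibitory activity, had 186, 99.7, 140 and 215 CPM in steers 1 to 4, against 248, 167, 280 and 182 in calves 1 to 4. The groups overlapped, and the change of -0.45 ± 0.28 did not pass (edgeR adjusted p = 0.31). CSTB, or stefin B, an intracellular inhibitor of cathepsins, had 459, 189, 195 and 323 CPM in steers 1 to 4, against 446, 221, 629 and 609 in calves 1 to 4 (-0.71 ± 0.40, adjusted p = 0.257). Its row joins 2 separate spans on chromosome 1 (143819485 to 143823722 and 143846935 to 143850386), which the reference table lists as 2 genes. SERPINB7, whose loss gives a palmoplantar skin disease in humans, had 0 to 1.08 CPM in steers and 0.0836 to 0.167 in calves, from 140 counts in all. It was too low for the test. With no filter its change was 2.39 ± 0.98 (adjusted p = 0.14), and it did not pass either without steer 1 or any single calf (2.28 to 2.69, adjusted p of 0.156 to 0.234). Without steer 2, which had no count, it passed (2.80, adjusted p = 0.0139).

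Among clade B serpins known from leukocytes or from protecting cells against their own proteases, SERPINB10 was higher and SERPINB1 lower in steers. SERPINB10, or bomapin, known in humans from bone marrow and myeloid cells, lies on chromosome 24 from 62099458 to 62123198. It had 81.0, 45.4, 98.0 and 108 CPM in steers 1 to 4, against 8.66, 2.54, 10.3 and 10.8 in calves 1 to 4. The lowest steer was more than 4 times the highest calf. With a log2 change of 3.36 ± 0.46 it rose most among the inhibitors called (edgeR adjusted p = 0.00159), and leaving out 1 library kept it between 3.06 and 3.58.

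Markers of myeloid and lymphoid cells moved in both directions. Of 7 neutrophil markers tested 5 fell and none rose in steers, with sums of 2368 to 7907 CPM in steers and 2995 to 25148 in calves, and CAMP had no count. Most of these sums came from S100A8, S100A9 and S100A12, which squamous cells also express. Of 10 tested macrophage and dendritic cell markers 3 rose and 1 fell, with sums of 37.5 to 114 CPM in steers and 59.8 to 109 in calves (AIF1 had no count). CSF1R (1.35 ± 0.29), CD207 (5.12 ± 0.61) and ITGAX (2.84 ± 0.55) rose, and CD14 (-1.95 ± 0.50) fell. Of 8 tested T and NK cell markers 6 rose and none fell, with sums of 21.1 to 57.0 CPM in steers and 6.22 to 18.9 in calves. In the order given, 71.4%, 40% and 75% of the tested markers were called, against 16.9% of all genes. The part of these markers in the SERPINB10 change was not tested.

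SERPINB1, an inhibitor of the neutrophil proteases elastase, cathepsin G and proteinase 3, lies on chromosome 23 from 50820662 to 50829834. It had 63.8, 53.0, 34.0 and 32.7 CPM in steers 1 to 4, against 108, 65.9, 135 and 87.1 in calves 1 to 4. The highest steer lay just under the lowest calf. The change was -1.11 ± 0.30 (edgeR adjusted p = 0.0298). The call ended without steer 3, steer 4, calf 1, calf 3 or calf 4, with changes of -1.16 to -0.93 and adjusted p of 0.0519 to 0.0828, and with smooth muscle as a covariate (-1.22, adjusted p = 0.0677).

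SERPINB6, an inhibitor of cathepsin G, had 233, 208, 132 and 113 CPM in steers 1 to 4, against 235, 183, 176 and 273 in calves 1 to 4. The groups overlapped (-0.34 ± 0.28, edgeR adjusted p = 0.453). SERPINB8, an inhibitor of furin, ran from 24.99 to 45.3 CPM in steers and from 24.7 to 51.1 in calves (adjusted p = 0.605). SERPINB9, which protects cells from granzyme B, ran from 0.111 to 1.05 CPM in steers and from 0.233 to 2.69 in calves (adjusted p = 0.422).

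Most of these clade B genes lie in clusters in the coordinates of the count table, and neighbours differed in their changes. On chromosome 24, 6 of them span 393 kb in the order SERPINB5, SERPINB12, SERPINB11, SERPINB7, SERPINB2 and SERPINB10. SERPINB8 lies on the same chromosome outside that cluster, from 12393109 to 12432313. SERPINB11 had 8 counts in all. The last 2 genes, SERPINB2 and SERPINB10, had changes of -0.70 and 3.36. Counts of SERPINB10 per count of SERPINB2 were 4.80, 8.76, 8.47 and 2.59 in steers 1 to 4, against 0.263, 0.111, 0.198 and 0.728 in calves 1 to 4. SERPINB2 had more counts in every calf and SERPINB10 in every steer. SERPINB12 per SERPINB5 was 0.145 to 0.45 in steers and 0.495 to 1.18 in calves. On chromosome 23, SERPINB1 per SERPINB6 was 0.255 to 0.289 in steers and 0.319 to 0.771 in calves.

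Ratios within a library need no scaling between libraries, so they show unequal change of the 2 genes but not which of them changed. A2ML1 per A2M, which are neighbours on chromosome 5, was 2.22, 0.192, 0.608 and 8.72 in steers 1 to 4, against 11.6, 12.4, 18.2 and 18.1 in calves 1 to 4. CST6 per CST3 was 0.404 to 1.09 in steers and 0.153 to 0.37 in calves. These 5 pairs were chosen after their values were seen and are given without a test.

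**Figure D4:**
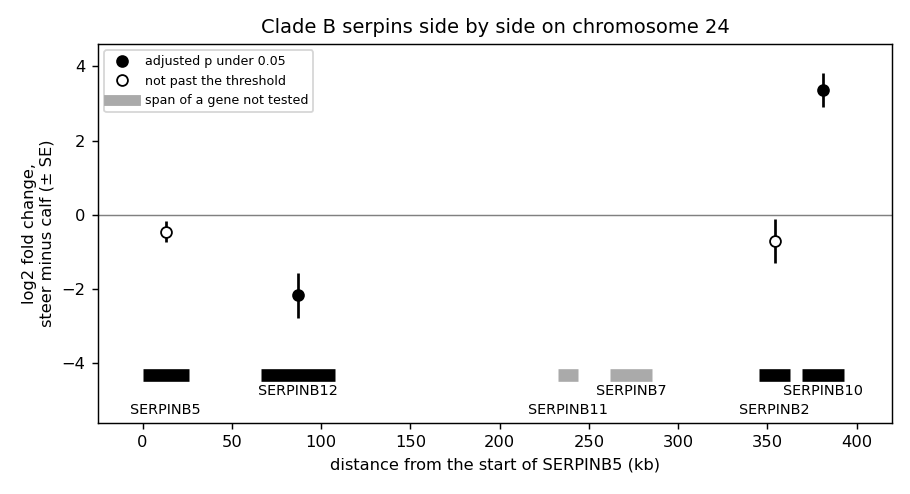
Log2 fold change, steer minus calf, with SE, of the 4 tested genes of the clade B cluster on chromosome 24. The x axis is the distance from the start of SERPINB5, with bars for the gene spans. SERPINB8, on the same chromosome outside the cluster, is not shown. SERPINB12 at -2.16 and SERPINB10 at 3.36 passed the test, and SERPINB5 and SERPINB2 did not.

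**Figure D5:**
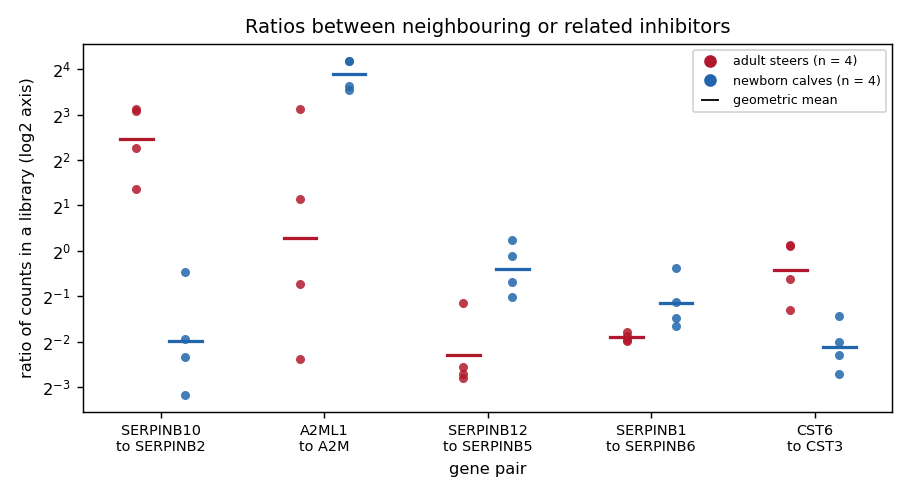
Ratio of the counts of 2 inhibitors within each library on a log2 axis, with the geometric mean of each group, steers left of calves. Steers and calves do not overlap in any of the 5 pairs, and SERPINB10 to SERPINB2 runs from 2.59 to 8.76 in steers and from 0.111 to 0.728 in calves.

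Among inhibitors known from plasma, SERPINA1, SERPINA5 and SERPING1 fell in steers. SERPING1, the C1 inhibitor, which restrains the complement C1 proteases and plasma kallikrein, lies on chromosome 15 from 80849917 to 80863386. It had 32.9, 65.6, 36.4 and 32.2 CPM in steers 1 to 4, against 133, 110, 97.1 and 91.6 in calves 1 to 4. Every steer was below every calf, and steer 2 stood above the other steers. The change of -1.37 ± 0.27 passed (edgeR adjusted p = 0.00815) and lay between -1.66 and -1.25 with 1 library left out.

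SERPINA5, the protein C inhibitor, had 0.35, 0.278, 0.484 and 0.876 CPM in steers 1 to 4, against 3.68, 5.35, 2.15 and 4.89 in calves 1 to 4. No steer reached a calf, and the change was -2.99 ± 0.48 (edgeR adjusted p = 0.00322). Its row joins 2 spans on opposite strands of chromosome 21, 59279562 to 59292087 and 59460088 to 59464931, so which span holds the reads cannot be told apart here. The reference table lists another gene at the second span, with the older name PCI.

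SERPINA1, or alpha-1-antitrypsin, the main plasma inhibitor of neutrophil elastase, lies on chromosome 21 from 59075343 to 59087254. It had 0, 0, 0.112 and 0.175 CPM in steers 1 to 4, against 2.10, 0.635, 3.07 and 0.585 in calves 1 to 4. That is 16 counts in steers and 302 in calves, and steers 1 and 2 had none. The fitted change was -4.31 ± 1.02 (edgeR adjusted p = 0.0182). The steer mean of 0.0717 CPM lay near the level that 3 counts in a library would give (0.0667 CPM), and the size of the change is uncertain for that reason. Without calf 3 the change was -3.79 (adjusted p = 0.0502), with smooth muscle as a covariate -3.54 (adjusted p = 0.0526), and without steer 4 it was -5.14. Of the 13 hepatocyte markers, APOB, APOH and FGA had no count, and the sums were 2.35 to 21.2 CPM in steers and 26.8 to 54.02 in calves, mostly APOA1 and AHSG. Their part in the SERPINA1 change was not tested.

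Other plasma-type inhibitors did not pass. A2M, the plasma macroglobulin, had 180, 439, 309 and 248 CPM in steers 1 to 4, against 370, 190, 337 and 91.1 in calves 1 to 4. The groups overlapped (0.25 ± 0.44, edgeR adjusted p = 0.743). SERPINF2, or alpha-2-antiplasmin, had 17.0, 6.07, 14.5 and 9.60 CPM in steers 1 to 4, against 3.03, 1.20, 4.75 and 6.84 in calves 1 to 4 (1.58 ± 0.51, adjusted p = 0.0628). It passed without steer 2 (1.81, adjusted p = 0.0451), without calf 4 (1.99, adjusted p = 0.044), with DESeq2 (adjusted p = 0.0128) and with limma-voom (adjusted p = 0.0417). SERPINE2, or protease nexin 1, a thrombin inhibitor of tissues, had 1.59 to 4.73 CPM in steers and 6.12 to 9.16 in calves. Every steer was below every calf, and the change of -1.12 ± 0.35 missed the threshold (adjusted p = 0.0556) but passed with DESeq2 (0.0097) and limma-voom (0.0406). SERPINC1, or antithrombin, had 1.15 to 7.65 CPM in steers and 1.09 to 4.33 in calves (adjusted p = 0.846). Its change of 0.23 was -0.58 without steer 1. SERPINE3, with 54.9% of its span inside INTS6, had 0.931 to 5.77 CPM in steers and 2.11 to 2.61 in calves (adjusted p = 0.568).

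SERPINH1, also called HSP47, is a collagen chaperone of the endoplasmic reticulum and not a protease inhibitor. It had 127, 168, 204 and 109 CPM in steers 1 to 4, against 183, 276, 205 and 237 in calves 1 to 4. The steer range reached into the calf range, and the change of -0.57 ± 0.25 did not pass (edgeR adjusted p = 0.15). Of 32 genes for collagen chains, folding and secretion 7 fell and none rose (21.9% called against 16.9% of all genes), with a median change of -0.43. COL1A1 averaged 202 ± 55 CPM in steers and 1196 ± 588 in calves (-2.56 ± 0.38), COL1A2 fell by 2.02 ± 0.41, and PCOLCE, with 75.3% of its span shared with another gene, fell by 1.38 ± 0.29. The COL1A2 call ended with the basal keratinocyte covariate (-2.55). Summed fibroblast markers were 662 to 1496 CPM in steers and 1768 to 5057 in calves, without overlap. Of 12 fibroblast markers 3 were lower (25% called against 16.9% of all genes), and COL1A1 and COL1A2 stand in both lists. The part of the fibroblast markers in these changes was not tested.

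CST3, or cystatin C, a secreted cathepsin inhibitor of most tissues, had 259, 222, 166 and 184 CPM in steers 1 to 4, against 141, 92.3, 108 and 186 in calves 1 to 4. Only calf 4 reached into the steer range, and the change of 0.66 ± 0.26 did not pass (edgeR adjusted p = 0.117). SERPINI1, or neuroserpin, a tPA inhibitor of neurons, had 1.5, 0.891, 1.15 and 4.28 CPM in steers 1 to 4, against 3.49, 4.28, 3.74 and 2.05 in calves 1 to 4 (-0.79 ± 0.51, adjusted p = 0.331). Without steer 4 its change was -1.52 (adjusted p = 0.0278). Of 13 enteric neuron and glia markers tested 6 fell and none rose (46.2% called against 16.9% of all genes). Their sums were 53.9 to 110 CPM in steers and 135 to 219 in calves, and steer 4 had the highest sum among steers. The part of these markers in the SERPINI1 values was not tested.

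Proteases and inhibitors outside this family were called in both directions, and their counts stand beside 7.7% higher and 9.16% lower over all genes tested. Of 34 genes tested from the serine protease list 2 rose and 5 fell (20.6% called against 16.9% of all genes, median change -0.43). That list holds F3, or tissue factor, which is a cofactor and not a protease, and F3 is among those that fell (-2.47 ± 0.45). The epithelial membrane proteases TMPRSS4 and TMPRSS11E averaged 0.754 ± 0.677 and 0.295 ± 0.344 CPM in steers, against 39.3 ± 21.4 and 11.7 ± 5.5 in calves (-5.66 ± 0.88 and -5.24 ± 0.77), and TMPRSS4 shares 41.6% of its span with another gene. PRSS27, a membrane-bound protease of squamous epithelium, averaged 5.24 ± 7.40 CPM in steers and 95.6 ± 68.3 in calves (-4.18 ± 1.02). Its call ended without steer 1 or steer 3 (changes -3.94 and -3.86, edgeR adjusted p = 0.0556 and 0.0525). Without steer 4 the changes were -6.37 for TMPRSS4, -6.48 for TMPRSS11E and -5.93 for PRSS27. PRSS23 and PRSS12 rose by 1.69 ± 0.34 and 1.68 ± 0.34, PRSS23 with 48.7% of its span shared. The calls of PRSS27 (-5.37), PRSS23 (1.34) and PRSS12 (1.84) ended with the basal keratinocyte covariate.

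Of 32 cysteine and aspartic proteases tested 3 rose and 6 fell (28.1% called against 16.9% of all genes, median change -0.21). The inflammatory caspases CASP1 and CASP4 changed by -5.01 ± 0.23 and -2.67 ± 0.41, and CTSC, cathepsin C, which activates granule proteases of leukocytes, by -1.87 ± 0.35. Cathepsin H (CTSH) and the calpain CAPN2 rose by 1.21 ± 0.29 and 0.92 ± 0.20. Other calpains were called lower in steers, with changes of -1.12 ± 0.20 for CAPN1 and -0.82 ± 0.20 for CAPN5. CAPN14 averaged 0 CPM in steers and 0.66 ± 0.48 in calves (-7.98 ± 1.23), so the size of its change is uncertain. The CTSH call ended without calf 1 (1.13) or calf 3 (1.12) and that of CAPN2 without calf 1 (0.91). The CTSH call also ended with smooth muscle as a covariate (0.80) and that of CAPN2 with library size alone as scaling (0.78). With the basal keratinocyte covariate the calls of CASP4 (-2.07), CTSC (-1.97), CTSH (1.52) and CAPN2 (0.91) ended.

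Of 26 other protease inhibitors tested 2 rose and 3 fell (19.2% called against 16.9% of all genes, median change -0.24). WFDC2, a secreted whey acidic protein domain protein, averaged 0.0904 ± 0.1187 CPM in steers and 75.3 ± 47.9 in calves. Its fitted change was -9.71 ± 1.02, and -10.77 without steer 1, and with a steer mean close to 3 counts per library the size is uncertain. PI15, a trypsin inhibitor, and SPOCK1, a testican, changed by -4.61 ± 0.60 and -3.27 ± 0.56 (SPOCK1 -4.01 without steer 2). PEBP1 and PAPLN rose by 0.87 ± 0.22 and 0.76 ± 0.20. The PEBP1 call ended without steer 1 or 2 or calf 1, 2 or 3 (0.80 to 0.87), and that of PAPLN without steer 1 or 3 or calf 1, 3 or 4 (0.71 to 0.76). The PEBP1 call also ended with smooth muscle as a covariate (0.67) and that of PAPLN with library size alone as scaling (0.65). With the basal keratinocyte covariate the calls of SPOCK1 (-4.08), PEBP1 (1.07) and PAPLN (0.94) ended. Of 16 tested genes of plasminogen activation and clearance, 1 fell and none rose (6.25% called against 16.9% of all genes, median change -0.07). That gene, LRP8, a receptor of the low density lipoprotein receptor family, changed by -1.61 ± 0.31, lost its call with the basal keratinocyte covariate (-1.84) and was named after its value was seen.

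Clade A serpins whose name is a clade letter and a number were mostly silent. Of 9 so named on chromosome 21, between 58909847 and 59464931, only SERPINA1 and SERPINA5 had at least 10 counts. Clade A serpins named in other ways, such as with a suffix, were not taken in. Over all clades, 12 inhibitors fell below that minimum: SERPINA6, SERPINA11, SERPINA12 and SERPINB11 had 8 counts each and SERPINI2 had 2. The lowest gene above it was SERPINB7 with 140. The other 7, SERPINA3, SERPINA4, SERPINA7, SERPINA10, SERPINA14, SERPIND1 and SERPINF1, had no count. The spans of SERPIND1 and SERPINF1 lie wholly (100%) inside PI4KA and SMYD4, and reads that fall in 2 genes were not counted, so these 2 could not be measured. The count of 0 therefore says nothing on SERPINF1, a serpin that fibroblasts secrete elsewhere.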

How the data were processed

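The deposited values are raw read counts, 1 row per gene name. FeatureCounts 2.0.2 was run by the authors, per the file headers, over transcript spans joined by gene name, with no strand option and in paired mode without counting pairs, so intron reads and both mates count. Of counts from 1 to 10, 86.9% to 89.0% were even. By the default, reads in more than 1 gene were dropped, and antisense reads cannot be told apart. Per the submitters' processing notes, the tools were Trimmomatic 0.39, STAR 2.7.11a, featureCounts 2.0.2 and DESeq2 1.42.0. No source used here names the genome build. The table of ARS-UCD2.0 served for names and chromosome numbers (25 of 26 inhibitors matched by symbol, CSTB by its older name).

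The steer against calf test used edgeR 4.0.16 under R 4.3.3: filterByExpr, TMM, robust quasi-likelihood F test, Benjamini-Hochberg adjustment over all 16326 genes tested, and SE as the log2 change over the square root of F. The fit was tested on simulated data. Alternatives were other scalings, tools (DESeq2 1.42.0, limma-voom 3.58.1), filters, covariates, a replicate block and libraries left out. No library repeated another: over all pairs within a group, chi-square divided by its degrees of freedom was at least 105. Counting floors cover counting error only. P-values measure the spread between animals.

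Members and gene lists were chosen with earlier results of these data known. The rule named every called inhibitor, the 8 most abundant, and up to 3 called genes per pathway list and direction with at least 5 CPM in the higher group. Some genes that the rule takes in are not reported here, though the counts include them.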

Additional observations from a re-analysis of the deposited data

Results flagged for a closer look

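In 52 sets of 4 CPM values (26 inhibitors in steers and in calves), 6 had a sample far from the other 3 by Dixon's criterion. The criterion flags about 1 of 20 sets by chance only for normally spread values in independent sets. These CPM values were not on a log scale and the sets share libraries, so that rate does not apply and no excess is claimed. In 4 of the 6 flagged sets the sample was steer 4. Steer 4 had 2157 CPM of A2ML1 against 84.5 to 400 in the other steers, 236 of SPINK5 against 5.48 to 19.99, 96.6 of SERPINB12 against 17.0 to 26.9, and 295 of SERPINB4 against 9.02 to 36.7. Steer 2 had 65.6 CPM of SERPING1 against 32.2 to 36.4 in the other steers. Calf 2 had 0.167 CPM of SERPINB7 against 0.0836 to 0.0931 in the other calves, from 22 counts in the 4 calves together.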

How the results depend on the processing

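Over 21 alternatives, 473 of 523 values for the 25 inhibitors kept their direction and their side of the threshold, 29 lost a call, 14 gained one and 7 changed sign, none of these called. The signs that changed were SERPINB2 with the smooth muscle covariate (0.055), A2M (-0.90), SERPINB6 (0.11) and SERPINB8 (0.18) with the basal keratinocyte covariate, SERPINC1 without steer 1 (-0.58), and A2M (-0.016) and SERPINC1 (-0.022) without calf 4. With 1 library left out, A2M ran from -0.016 to 0.52 and SERPINC1 from -0.58 to 0.52. The cause was not tested.

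With the basal keratinocyte mean as a covariate, 4 inhibitors were called (2 lower) and 646 genes in all (273 higher, 373 lower). SPINK5 (-4.46), SERPINA5 (-2.57), SERPINB1 (-1.07) and SERPINB12 (-2.89) were among the calls lost. With 1 library left out, 5 to 11 inhibitors (2 to 4 higher, 2 to 8 lower) and 1734 to 3257 genes (705 to 1473 higher, 1029 to 1784 lower) were called. Genes higher in steers numbered 835 with library size only, which shifted the median log2 change of all genes by -0.11 and left 9 inhibitors called, and 1944 with DESeq2.

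Replicate numbers are shared by the labels, and same-numbered animals deviated together at r of 0.16, 0.07, -0.08 and -0.24. Whether a number also stands for a shared batch is not in the labels used here and was not tested. No steer correlated best with the calf of its own number. With a replicate block 8 inhibitors and 1831 genes (785 higher) were called. SERPINB1 (-1.12) and SERPINB12 (-2.48) were not among the 8, and SERPINF2 was. CTSH (1.21), PEBP1 (0.86) and PAPLN (0.74) also lost their calls with the block.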

Other observations

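Markers of other cell types that rumen tissue can hold were measured in the same libraries. Their counts stand beside 7.7% higher and 9.16% lower over all genes tested. Of 12 endothelial markers 3 fell and none rose in steers, with sums of 230 to 414 CPM in steers and 343 to 630 in calves. Of 8 tested mesothelial markers 2 rose and 2 fell (48.3 to 120 CPM in steers and 59.8 to 159 in calves, WT1 without a count). Of 6 tested mast cell markers 1 rose (13.1 to 24.1 CPM in steers and 11.4 to 19.6 in calves). Summed B and plasma cell markers (14.4 to 23.7 CPM in steers and 14.3 to 18.4 in calves) and erythroid markers (1.77 to 4.85 CPM in steers and 1.72 to 7.43 in calves) overlapped between the groups, and HBM and SLC4A1 had no count.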
